A study of Mus musculus with 8 samples.

Results

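The enzymes described here carry carbon through the tricarboxylic acid (TCA) cycle and through fatty acid oxidation, 35 genes of the 24213 measured. They were chosen as a list by gene symbol, not by their signal, with 20 genes of pyruvate entry and the TCA cycle and 15 of fatty acid oxidation, and all 35 were found on the arrays. Cells sorted from bone marrow as hematopoietic stem cells (HSCs) gave 4 arrays of Atg12 conditional knockout mice and 4 arrays of control mice. The knockout mice carried floxed Atg12 alleles and Mx1-Cre, and the control mice carried the floxed alleles without Cre. All mice were C57BL/6 and received poly(I:C), a double-stranded RNA that triggers interferon, at 4 weeks of age, the controls included. By the design text, cells were taken from single animals 2 to 3 months later, at 3 to 4 months of age, with a sort for Lin-, c-Kit+, Sca-1+, Flk2-, CD150+ and CD48- cells. Mx1-Cre is switched on by interferon and is not restricted to blood cells, and since no control animal carried it, effects of the recombinase and of Atg12 loss cannot be told apart. Atg12 encodes a ubiquitin-like protein needed to build autophagosomes, the vesicles that deliver cell contents, mitochondria included, to the lysosome. The series title names metabolism of HSCs as its subject, and the comparison addressed whether transcripts of these mitochondrial pathways differed without Atg12.

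Pyruvate enters mitochondria and is converted to acetyl-CoA by the pyruvate dehydrogenase complex or to oxaloacetate by pyruvate carboxylase. The TCA cycle then oxidises acetyl-CoA to carbon dioxide and passes electrons to the respiratory chain. Long-chain fatty acids cross the inner membrane bound to carnitine and are shortened in rounds of dehydrogenation, hydration, a further dehydrogenation and thiolysis, each yielding acetyl-CoA. HSCs are known for relatively low mitochondrial activity at rest, and fatty acid oxidation has been linked to their maintenance.

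Each value below is a log2 signal after RMA, a method that corrects background, equalises the distributions of arrays and summarises the probes of a gene, so 1 unit is a 2-fold step in signal. Signals of different genes come from different probes and their levels are not on a common scale. In bulk RNA of sorted cells, fewer cells of a type and less RNA per cell cannot be told apart. Sex-linked transcripts gave a level for absent RNA: on arrays without Xist signal, or without Y-linked signal, those genes read 1.64 to 3.20, and 3.20 was taken as the level. It rests on few genes, each with its own probes, so a signal near it does not settle whether RNA was present. On this measure 34 of the 35 members had a mean signal above the absent level, and 14697 of all 24213 genes did. The exception was Pcx, with a mean of 3.17, while Mdh2 had the highest mean of the members at 10.69.

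The arrays were not alike in other respects. Xist was high on knockout arrays 1, 2 and 4 and on control array 4, and Y-linked genes were high on knockout arrays 3 and 4 and on control arrays 1, 2 and 3, so that knockout array 4 carried both, with Xist at 8.12 and a Y-linked mean of 5.83. That mixed signal goes against a single animal as the source of knockout array 4, and whether the knockout group holds 4 separate animals was not tested. Knockout array 3 stood apart on the first principal component, at 39.5 against -14.8 to 12.2 on the other arrays. Of 9 genes of the sort gate and HSC identity, Slamf1 (the gene of CD150) and Mecom averaged below the absent level and the other 7 above it, while Cd48, sorted against, averaged 8.61 and the myeloid progenitor gene Mpo 12.21. Of the 9 sort gate and HSC genes, 5 had a positive and 4 a negative difference (list median 0.09), with Ly6a (the gene of Sca-1) at 0.65. Of 5 erythroid markers, 2 were positive and 3 negative (list median -0.04), with Tfrc at 0.74. Of 7 mature granulocyte and macrophage markers, 4 were positive and 3 negative (list median 0.06), with Lcn2 at 0.66. The groups did not overlap for Tfrc and Lcn2, both higher in knockout, nor for 2.90% of all genes. Markers lower in knockout without overlap were 3 of 5 for mast cells and basophils, 1 of 5 for B cells and 2 of 5 for T and NK cells. Of these, the B cell gene Cd79a and the NK cell gene Klrd1 were below the absent level on every array. Ly6a, Tfrc and Lcn2 were named after their values were seen. All 5 mast cell and basophil markers had a negative difference, from -1.16 to -0.38, with a list median of -0.64. The mean of this list was 5.09 to 5.72 on knockout arrays and 5.63 to 6.30 on control arrays. Of 6 megakaryocyte and platelet markers Pf4 was at -1.40, Itga2b at -0.32 and the other 4 between -0.09 and 0.01, with a list median of -0.07, and the mean of this list was 3.68 to 4.11 on knockout arrays and 4.13 to 4.45 on control arrays. The part of such differences in the values of the enzyme genes was not tested. Atg12 itself averaged 5.50 ± 0.13 in knockouts and 6.44 ± 0.08 in controls (SD, n = 4 each), a log2 difference of -0.93 (SE 0.10), or 52.4% of the control signal. Which part of the gene was deleted is not given in the labels, so its probes may lie outside the deleted part. The source of the remaining Atg12 signal was not tested.

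None of the 35 enzyme genes passed the test between knockout and control (limma, adjusted over all 24213 genes). The smallest adjusted p among them was 0.991, for Ogdh. Across all genes 1 passed, Atg12, which is 0.00413% of those tested (limma adjusted p = 0.031). That call was lost with any 1 array left out (limma adjusted p 0.0542 to 0.226). Before adjustment, 1 of the 35 members, Ogdh, had a limma p under 0.05, against 4.94% of all genes (2.43% higher and 2.50% lower in knockout). Knockout and control arrays did not overlap for 2 members, Ogdh and Acads, both lower in knockout, where 2.90% of all genes did not overlap (1.36% with all knockout arrays higher and 1.54% with all lower). With 35 members, counts of 1 and 2 are near these backgrounds and are not a result about the members as a group.

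Differences were small at every step of both pathways. The log2 difference of the 35 members had a median of -0.01 and lay between -0.23 for Ogdh and 0.14 for Pcx, against a median of 0.002 over all genes and -0.009 over the genes above the absent level. For 26 of 35 members it was smaller than 0.1 in either direction, a change of less than 1.07-fold, and for all 35 it was smaller than 0.25. The median size of the difference, regardless of sign, was 0.046 for the members and 0.081 for the genes above the absent level, with median standard errors of 0.094 and 0.117. The arrays bounded what could have been missed: for 34 of 35 members the 95% interval of the difference lay within 0.5 log2 units of 0 (1.41-fold), the exception being Cpt1a, and for 12 of 35 it lay within 0.25 (1.19-fold). These intervals were not adjusted for the number of genes. A p that misses the threshold does not show that the groups were equal, and these bounds say how large a difference the data still allow. The plot of differences by step shows every member with its interval.

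**Figure D1:**
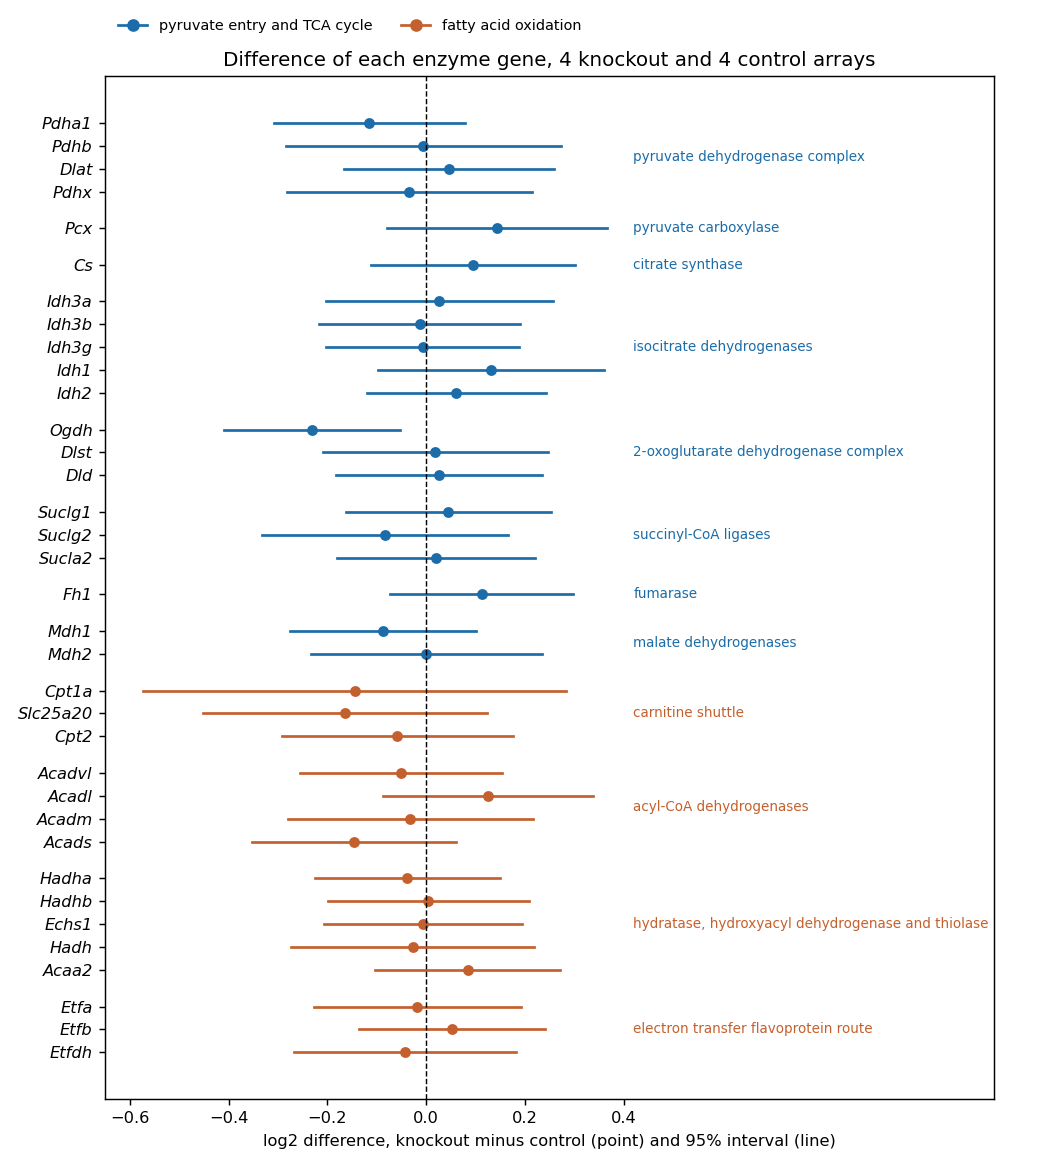
Difference of each of the 35 enzyme genes between 4 knockout and 4 control arrays, in log2 units (knockout minus control), with the 95% interval from limma as a line, grouped by pathway step. The interval of Ogdh, -0.41 to -0.05, is the only one that does not include 0, and it is not adjusted for the number of genes.

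Promoter sequences are shown for the genes whose groups did not overlap and for the trifunctional protein, whose genes lie head to head. RefSeq windows (GRCm38.p6), running from 250 bases before to 50 bases after a gene's start, matched 33 of the 35 members by symbol, with 40 windows. Motif letters were searched on both strands, and a match is a description of the sequence only. The GC box, searched as GGGCGG, was in 72.5% of the members' windows and 35.7% of all 32851 windows. A CCAAT box, searched by those letters, was in 57.5% of the members' windows and 37.4% of all windows. Ogdh alone gave 6 of the 40 windows, each with a CCAAT box, and counted by gene the box was in a window of 17 of 33 members and the GC box in one of 25. The hexamer bound by nuclear receptors, AGGTCA, was in 22.5% of the members' windows and 16.3% of all windows. The TATA box, searched as TATAAA, was in none of the 40 windows and in 13.6% of all windows, and the longer element of estrogen-related receptors, TCAAGGTCA, which contains the hexamer, was in none of the 40 and in 0.423% of all windows. Median GC content was 60.8% for the members' windows and 52.7% for all windows, and the share with a GC box is not adjusted for it.

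Of the steps that bring pyruvate into the cycle, the pyruvate dehydrogenase complex is built from Pdha1 and Pdhb (the E1 subunits that decarboxylate pyruvate), Dlat (the E2 acetyltransferase) and Pdhx (which anchors E3 to the core). The mean of its 4 genes was 6.73 ± 0.09 on knockout arrays and 6.76 ± 0.12 on control arrays (SD, n = 4 each), a log2 difference of -0.03 (SE 0.08). Pdha1, an X-linked gene, had the smallest p of the complex, with 7.74, 7.66, 7.71 and 7.82 on knockout arrays 1 to 4 and 7.75, 7.93, 7.81 and 7.90 on control arrays 1 to 4. Knockout arrays 1, 2 and 3 lay below all controls and knockout array 4 did not, with a log2 difference of -0.12 (SE 0.09). The other 3 subunits had differences of -0.03 to 0.05. With Xist signal as a covariate Pdha1 was at -0.14, Pdhb at -0.17, Dlat at 0.01 and Pdhx at -0.15. Pcx encodes pyruvate carboxylase, which refills the cycle with oxaloacetate. It was near the absent level, with 3.45, 3.29, 3.13 and 3.12 on knockout arrays and 3.13, 3.18, 3.06 and 3.04 on control arrays, and was above that level on 2 knockout arrays and on no control array. The fitted log2 difference of 0.14 (SE 0.10) is one of signals close to background, and no fold is read from it.

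Citrate synthase (Cs) joins acetyl-CoA to oxaloacetate. Cs read 8.68, 8.60, 8.73 and 8.69 on knockout arrays and 8.68, 8.46, 8.48 and 8.70 on control arrays. Control arrays 2 and 3 were lower than the remaining 6 arrays, and the groups overlapped, with a log2 difference of 0.10 (SE 0.09).

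Isocitrate dehydrogenase exists in several forms. Idh3a, Idh3b and Idh3g encode the subunits of the NAD-dependent enzyme of the cycle, Idh2 a mitochondrial NADP-dependent enzyme and Idh1 its cytosolic counterpart. The NAD-dependent subunits had log2 differences of 0.03, -0.01 and -0.01, each with a standard error of 0.09 to 0.10. Idh1 read 8.51, 8.34, 8.21 and 8.35 on knockout arrays and 8.20, 8.18, 8.09 and 8.41 on control arrays. Control array 4 was the only control above the lowest knockout, and the log2 difference was 0.13 (SE 0.10), or 0.02 with Xist signal as a covariate. Idh2 was nearly level across the knockouts, at 9.44 ± 0.02, and averaged 9.38 ± 0.07 in controls (SD, n = 4 each), a log2 difference of 0.06 (SE 0.08).

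The 2-oxoglutarate dehydrogenase complex, which makes succinyl-CoA, held the member of smallest p. Ogdh, encoding its substrate-binding E1 subunit, read 7.41, 7.45, 7.43 and 7.43 on knockout arrays and 7.60, 7.68, 7.63 and 7.73 on control arrays. Every knockout array lay below every control array, and the knockouts were closer together than the controls. The group means were 7.43 ± 0.01 in knockouts and 7.66 ± 0.05 in controls (SD, n = 4 each), a log2 difference of -0.23 (SE 0.08; two-sided exact permutation p = 0.0286, the lowest that 70 assignments allow). That corresponds to 85.2% of the control signal. Over all genes Ogdh ranked 367 by limma p and did not pass (adjusted p = 0.991; 0.559 to 1.00 over 19 alternatives). The difference was -0.23 without knockout arrays 3 and 4. Dlst, the E2 succinyltransferase, and Dld, the E3 subunit shared with pyruvate dehydrogenase, had differences of 0.02 (SE 0.10) and 0.03 (SE 0.09).

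Ogdh has 6 RefSeq windows for different starts, and which transcripts its probes cover is not known here. The most upstream window (chr11:6291347-6291646, plus strand) held 2 CCAAT boxes, 1 GC box and no nuclear receptor hexamer, and is printed 5′ to 3′ with these boxes, on either strand, in capitals. Another of the 6 windows held the hexamer, and the 2 most downstream windows held no GC box.
Ogdh: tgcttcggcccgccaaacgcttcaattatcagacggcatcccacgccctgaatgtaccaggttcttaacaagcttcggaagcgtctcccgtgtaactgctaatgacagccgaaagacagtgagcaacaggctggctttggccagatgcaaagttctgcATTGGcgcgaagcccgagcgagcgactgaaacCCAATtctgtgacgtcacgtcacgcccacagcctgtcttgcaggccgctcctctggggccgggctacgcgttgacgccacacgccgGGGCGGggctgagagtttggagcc

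Succinyl-CoA ligase pairs Suclg1 with either Suclg2 (the GTP-forming partner) or Sucla2 (the ATP-forming partner). Suclg2 had the smallest p of this step, with 7.81, 7.92, 7.72 and 7.99 on knockout arrays and 7.82, 7.87, 7.86 and 8.21 on control arrays. Control array 4 alone stood above all other arrays, and the log2 difference was -0.08 (SE 0.11). The difference was 0.007 without that array and -0.21 with Xist signal as a covariate. A second feature of Suclg2, of nearly equal mean (7.898 against 7.901), gave -0.04. Suclg1 was at 0.05 (SE 0.09) and Sucla2 at 0.02 (SE 0.09).

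Fumarase and malate dehydrogenase close the cycle. Fh1, encoding fumarase, read 8.37, 8.28, 8.43 and 8.44 on knockout arrays and 8.31, 8.22, 8.28 and 8.26 on control arrays. Knockout arrays 1, 3 and 4 lay above all controls, with a log2 difference of 0.11 (SE 0.08). Mdh1, encoding the cytosolic malate dehydrogenase, read 9.25, 9.29, 9.34 and 9.26 on knockout arrays and 9.29, 9.34, 9.37 and 9.49 on control arrays. Its groups overlapped, with a log2 difference of -0.09 (SE 0.09; two-sided exact permutation p = 0.0571). Mdh2, the mitochondrial enzyme, averaged 10.69 ± 0.18 in knockouts and 10.69 ± 0.07 in controls (SD, n = 4 each).

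**Figure D2:**
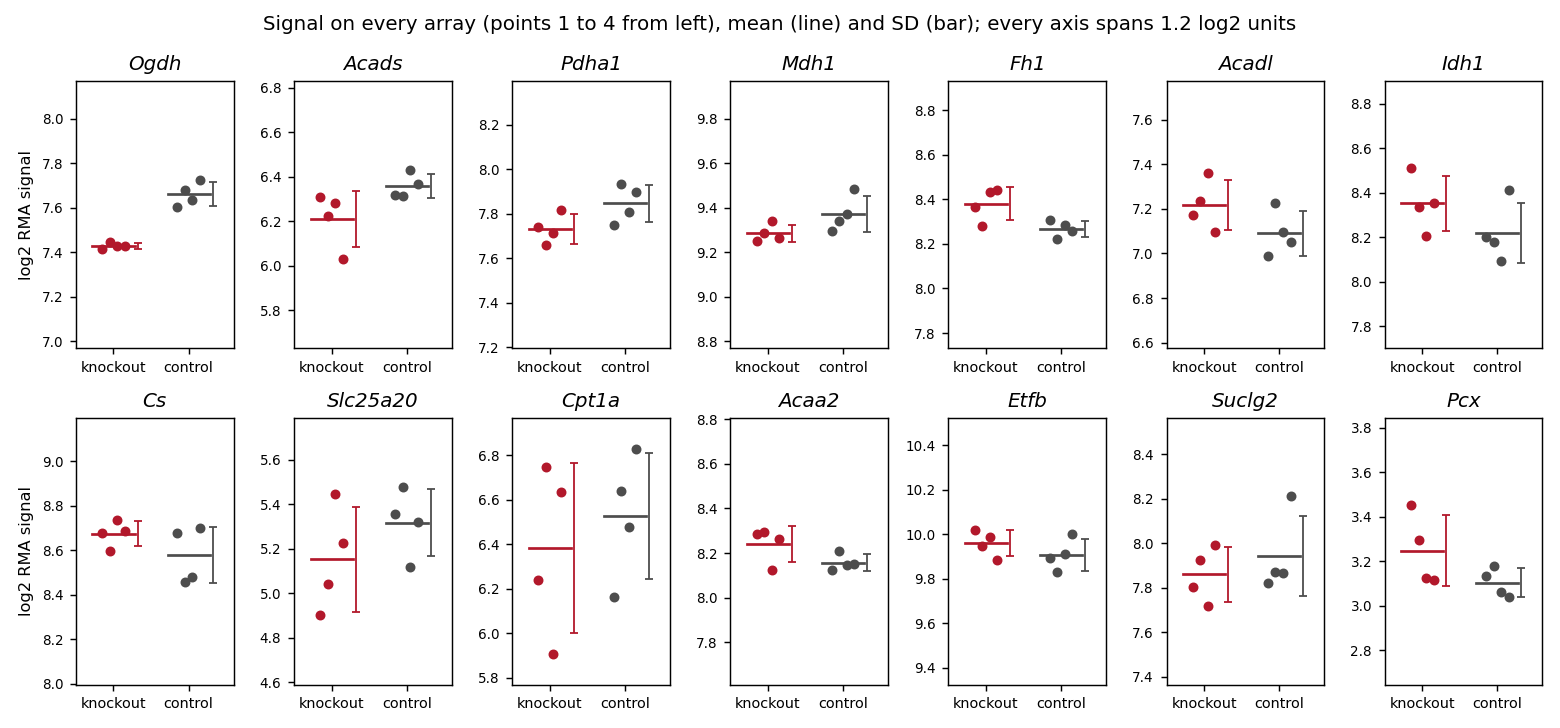
Log2 RMA signal of 14 enzyme genes on each of 4 knockout and 4 control arrays (points 1 to 4 from left in each group), with group means as lines and SDs as bars, on axes of equal span. Ogdh and Acads are the genes whose knockout arrays all lie below all control arrays, and Cpt1a is spread widely in both groups.

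Entry of fatty acids runs through the carnitine shuttle. Cpt1a, the malonyl-CoA-sensitive outer membrane transferase that limits entry, Slc25a20, the carnitine-acylcarnitine carrier, and Cpt2, the inner membrane transferase, had differences of -0.14 (SE 0.19), -0.16 (SE 0.13) and -0.06 (SE 0.11), and the mean of the 3 genes was 6.14 ± 0.15 on knockout arrays and 6.26 ± 0.11 on control arrays (SD, n = 4 each). Slc25a20 read 4.90, 5.04, 5.45 and 5.23 on knockout arrays and 5.36, 5.48, 5.12 and 5.32 on control arrays. Knockout arrays 1 and 2 were below all controls and knockout array 3 was near the top, and the difference was -0.35 without knockout arrays 3 and 4. Cpt1a, chosen for display after its values were seen, varied more than any other member, with 6.24, 6.75, 5.91 and 6.63 on knockout arrays and 6.16, 6.64, 6.48 and 6.83 on control arrays. Low and high arrays occurred in both groups. Its difference was 0.01 without knockout array 3 and -0.39 with Xist signal as a covariate (limma adjusted p = 0.582 there).

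The acyl-CoA dehydrogenases start each round and differ in the chain length they accept, from Acadvl (very long) through Acadl (long) and Acadm (medium) to Acads (short). Acads read 6.31, 6.22, 6.28 and 6.03 on knockout arrays and 6.32, 6.31, 6.43 and 6.37 on control arrays. Knockout array 4 was lowest, and the highest knockout lay just below the lowest control, a gap of under 0.01. The log2 difference was -0.15 (SE 0.09; limma adjusted p = 1.00), -0.09 without knockout array 4 and -0.09 without knockout arrays 3 and 4. Acadl lay the other way, at 7.17, 7.23, 7.36 and 7.10 on knockout arrays and 6.99, 7.23, 7.10 and 7.05 on control arrays. Its groups overlapped, with a log2 difference of 0.13 (SE 0.10). Acadm and Acadvl had differences of -0.03 (SE 0.11) and -0.05 (SE 0.09), so no common direction ran through the 4 chain lengths.

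The Acads promoter is printed beside that of Ogdh as the other gene without overlap, with the same letters in capitals (chr5:115119297-115119596, minus strand, 5′ to 3′). It held 1 GC box, and neither a CCAAT box nor the hexamer.
Acads: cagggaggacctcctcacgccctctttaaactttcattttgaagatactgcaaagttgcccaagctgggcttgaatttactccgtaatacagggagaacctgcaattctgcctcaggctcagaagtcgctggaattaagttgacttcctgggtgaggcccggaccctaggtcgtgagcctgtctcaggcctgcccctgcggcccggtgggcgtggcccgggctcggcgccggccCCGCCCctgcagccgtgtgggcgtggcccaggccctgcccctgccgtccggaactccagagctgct

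The later reactions of the spiral are carried out by Hadha and Hadhb, the subunits of the mitochondrial trifunctional protein for long chains, and by Echs1 (hydratase), Hadh (hydroxyacyl-CoA dehydrogenase) and Acaa2 (thiolase) for shorter ones. The mean of these 5 genes was 7.96 ± 0.08 on knockout arrays and 7.96 ± 0.07 on control arrays (SD, n = 4 each). Hadha had a difference of -0.04 (SE 0.08) and Hadhb one of 0.005 (SE 0.09). Acaa2 had the smallest p of the 5, with 8.29, 8.29, 8.12 and 8.26 on knockout arrays and 8.12, 8.21, 8.15 and 8.15 on control arrays. Knockout array 3 was level with the lowest control and the other knockouts lay above all controls, and the log2 difference was 0.08 (SE 0.08).

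Hadha and Hadhb start on opposite strands, and their windows share 228 of 300 bases, so that a single stretch precedes both subunit genes. The Hadhb window (chr5:30155003-30155302, plus strand, 5′ to 3′) is printed with its 4 GC boxes, on either strand, in capitals. The shared stretch is the first 228 bases of this window. The Hadha window held 1 GC box, which is the first of the 4 in capitals, and the other boxes do not lie wholly in the shared stretch.
Hadhb: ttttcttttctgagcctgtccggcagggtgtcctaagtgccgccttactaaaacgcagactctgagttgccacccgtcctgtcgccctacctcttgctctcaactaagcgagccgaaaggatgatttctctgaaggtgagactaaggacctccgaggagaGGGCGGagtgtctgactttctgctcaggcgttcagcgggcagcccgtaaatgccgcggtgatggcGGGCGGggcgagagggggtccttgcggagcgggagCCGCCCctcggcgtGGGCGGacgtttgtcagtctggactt

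Electrons from the acyl-CoA dehydrogenases pass to the electron transfer flavoprotein, made of Etfa and Etfb, and on to ubiquinone through Etfdh. Etfb read 10.02, 9.95, 9.99 and 9.89 on knockout arrays and 9.89, 9.83, 9.91 and 10.00 on control arrays. The groups overlapped, with a log2 difference of 0.05 (SE 0.09). Etfa was at -0.02 (SE 0.10) and Etfdh at -0.04 (SE 0.10).

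Set side by side, 8 of 20 genes of pyruvate entry and the TCA cycle and 11 of 15 genes of fatty acid oxidation had a negative difference, against 53.1% of the genes above the absent level. The pathway means differed by 0.007 (SE 0.034) for the TCA group and -0.03 (SE 0.04) for fatty acid oxidation. The TCA mean was -0.01 without control array 1, 0.04 without control array 4 and -0.02 when Xist signal was a covariate. The count of 11 depended on single arrays: without knockout array 3, 6 of 15 fatty acid oxidation genes had a negative difference and the mean was -0.006. The count was 8 of 15 without control array 2, 9 of 15 without control array 4, and 7 of 15 without knockout arrays 3 and 4. The fatty acid oxidation mean was further from 0 under other settings, at -0.06 without control array 1 (11 of 15 negative), -0.04 without knockout array 4 (12 of 15) and -0.07 when Xist signal was a covariate (12 of 15). The difference between the pathways was not tested.

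Arrays within a group differed by more than the group means. Measured from each gene's mean over the 8 arrays, the members averaged -0.01 on knockout array 1, -0.004 on knockout array 2, -0.03 on knockout array 3 and 0.02 on knockout array 4, against -0.07 on control array 1, 0.02 on control array 2, -0.01 on control array 3 and 0.08 on control array 4. Control array 4 gave the highest value of 12 members and control array 1 the lowest of 9, both within the control group. Control array 4 was the only control with high Xist signal, which knockout arrays 1, 2 and 4 had. Among controls, sex therefore cannot be told apart from that array. Knockout array 3 gave the lowest value of 11 members and the highest of 5. On that array the fatty acid oxidation genes averaged -0.09 from their means and the TCA genes 0.01, and its deviations ran wide, with Cpt1a, Pdhb and Acadm at the low end and Mdh2, Slc25a20 and Acadl at the high end, genes named after their values were seen. The map of deviations shows these columns beside each other.

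**Figure D3:**
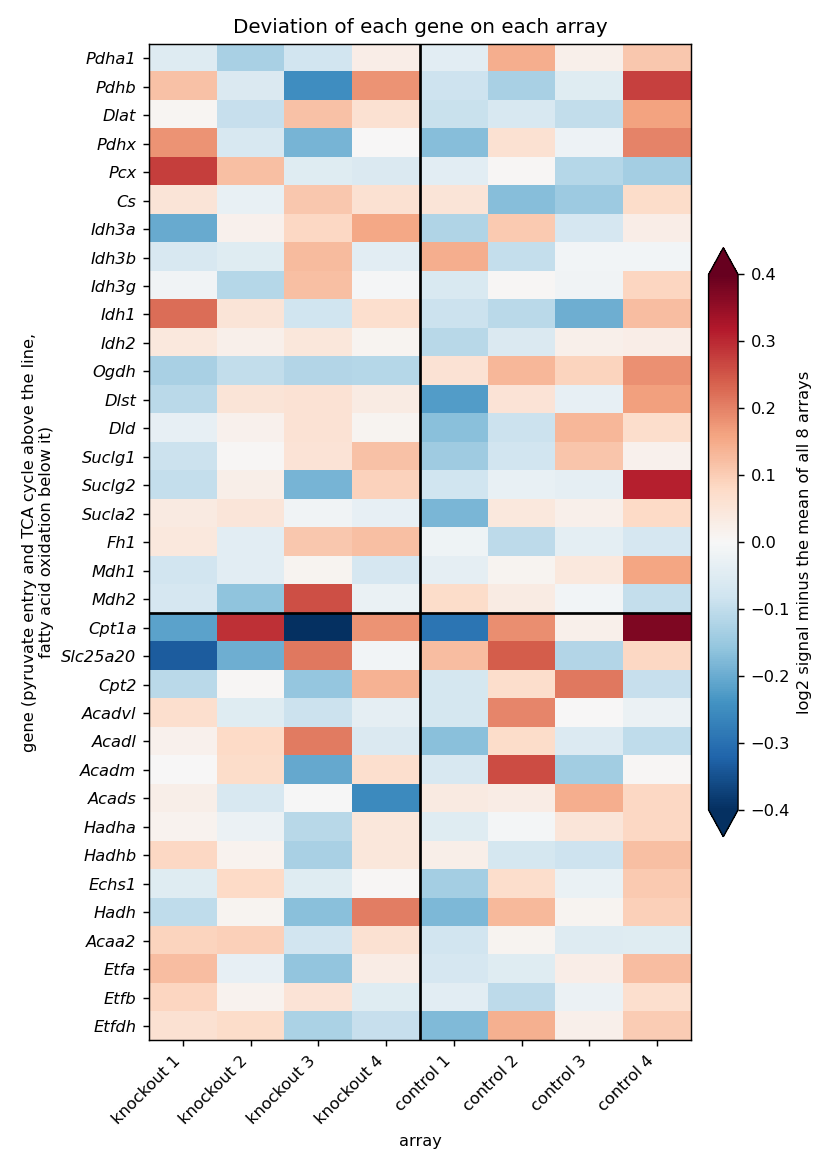
Deviation of each member's log2 signal from its mean over all 8 arrays, with knockout arrays 1 to 4 left of control arrays 1 to 4 and genes in pathway order. Cpt1a on knockout array 3 lies beyond the end of the scale and is drawn in its last colour. Ogdh is low on all 4 knockout arrays, whereas most genes vary as much within a group as between groups.

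Other genes of the same pathways, taken from lists that do not hold the members, were described in the same way. None of 119 measured genes passed the test in either direction (limma, adjusted over all genes), and 3 had an unadjusted p under 0.05, or 2.52%, against 4.94% of all genes. The log2 difference was positive for 66 of the 119 genes and negative for 53, with a median of 0.02. Among 30 genes of pyruvate handling and side branches of the cycle, Pdp2, a phosphatase that activates pyruvate dehydrogenase, had the smallest p and read 5.20, 5.38, 5.11 and 5.20 on knockout arrays against 5.83, 5.57, 5.57 and 5.24 on control arrays. The groups overlapped through control array 4, with a log2 difference of -0.33 (SE 0.13; limma adjusted p = 0.991). Iscu, an iron-sulfur cluster scaffold in the list of lipoylation and cofactor supply, was at -0.15 (SE 0.09). Acat1, a mitochondrial acetoacetyl-CoA thiolase, was at -0.17 (SE 0.10) and was the gene of smallest p among 20 other genes of mitochondrial fatty acid oxidation.

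Among 16 genes of fatty acid uptake and activation, Abhd5, a coactivator of triglyceride lipase, was at 0.22 (SE 0.12). In the peroxisomal list of 15 genes, 1 gene in each direction had an unadjusted p under 0.05. Acox2, an acyl-CoA oxidase, read 3.21 to 3.48 on knockout arrays and 2.87 to 3.24 on control arrays, above the absent level on 4 knockout arrays and 1 control array, and no difference is given for it. Ehhadh, the peroxisomal bifunctional enzyme, was at -0.36 (SE 0.15; limma adjusted p = 1.00). Of 21 transcriptional and malonyl-CoA regulators, 16 averaged above the absent level, and 13 had a positive and 8 a negative difference. Esrrb had the smallest p of this list and was below the absent level on every array, as was Ppargc1a, a coactivator of oxidative genes. Ppargc1a was named after its values were seen, and no difference is given for Esrrb or Ppargc1a.

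**Figure D4:**
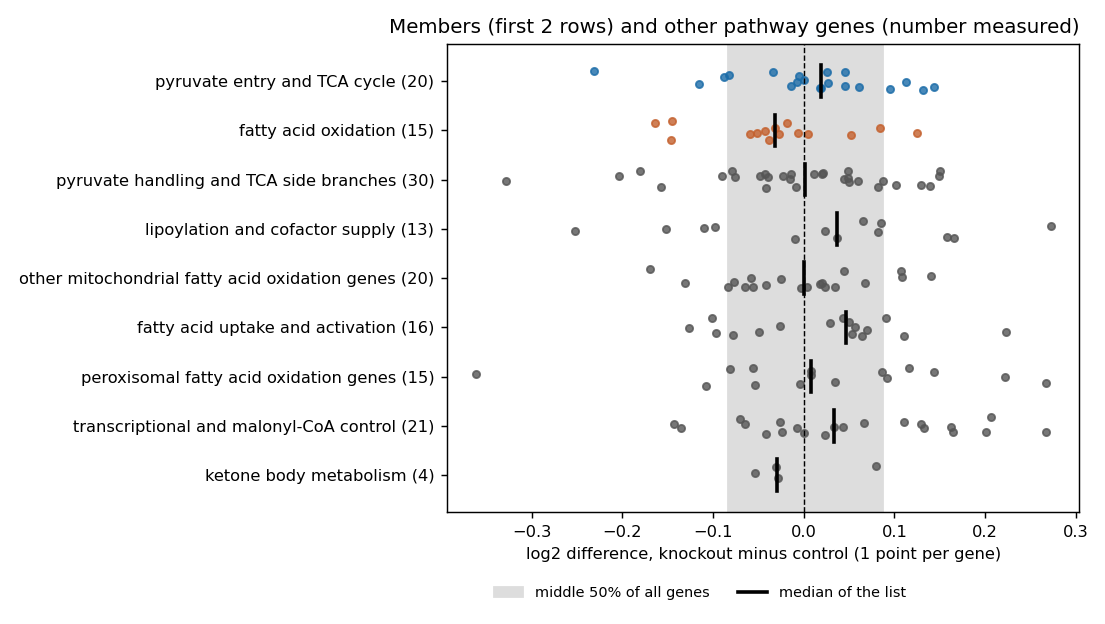
Log2 difference of each gene, knockout minus control, for the enzyme genes of both pathways (coloured, at the top) and for lists of other genes of the same pathways (grey). Black ticks are medians and the grey band holds the middle 50% of all 24213 genes, and the medians of all lists lie within the band.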

How the data were processed

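By the design text cells of single mice were sorted (knockout array 4 carries signal of both sexes, which goes against this). RNA was isolated (PicoPure) and amplified (Ovation Pico WTA V2), and the product was run on Affymetrix Gene ST 1.0 arrays, as the labels' protocols and design text state. The deposited values are log2 signals. Per the submitters' processing notes RMA and limma were used, with no settings named, and the annotation behind the gene symbols was not given in the sources used here. Both deposited tables held the same 28853 features, with a largest difference of 0 between them. Features without a symbol (1494) were dropped and, where several shared a symbol, that of highest mean was kept, which left 24213 genes. Hadhb and Suclg2 had 2 features each.

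All genes were fitted in limma 3.58.1 (R 4.3.3; lmFit, eBayes) as knockout against control, without filter or covariate. Benjamini-Hochberg adjustment covered all genes, and an adjusted p under 0.05 counted as passing. Step means were taken per array and compared without a test. Array data hold no read depth, and 4 arrays per group limit the precision. Per-array values are given for the 2 genes of smallest p in each pathway, the gene of smallest p in each step and genes without overlap; from each other list the gene of smallest p is named, except for 1 list where it is not reported here. The other pathway lists held 121 genes, of which Flad1 and Acsl3 were not found by symbol. Members, lists and tests were chosen with earlier results of these data known. Alternatives covered single arrays left out, knockouts 3 and 4 left out, sex-linked signal, centring, filters and the replicate block. Figures were drawn in Python 3.11.15 with matplotlib 3.10.9.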

Additional observations from a re-analysis of the deposited data

Results flagged for a closer look

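Among 70 groups of 4 arrays (35 genes in knockout and in control), 4 held an array far from the other 3 by Dixon's criterion, about as many as chance flags at 1 in 20 groups. Idh3b read 8.24 on knockout array 3, against 8.05 to 8.08 on the other knockouts. Dlst read 7.34 on knockout array 1, against 7.48 to 7.51 on the others. On control array 4, Dlat read 6.79, against 6.53 to 6.56 on the other controls, and Suclg2 read 8.21, against 7.82 to 7.87.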

How the results depend on the processing

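With 19 alternatives, of which 8 leave out 1 array, none of the 35 enzyme genes passed the test, and the smallest adjusted p was 0.559 (Ogdh with Xist signal as a covariate; limma). With an unadjusted p under 0.05 the counts were 1 enzyme gene and 1195 of all genes. The count over all genes, 1 in the comparison as reported, was 0 with the replicate block, without knockouts 3 and 4 together, with arrays centred on their median, and with Xist or Y-linked signal as a covariate, and 0 to 3 with 1 array left out, the 3 without control 4 and Atg12 not among them. The sign of the difference was the same under all 19 alternatives for 14 of 35 genes, among them Ogdh (-0.26 to -0.21). Some alternatives could not change a sign: the replicate block, another variance setting of limma, the signal filter and the second deposited table leave each difference as it was. For Ogdh, whose groups did not overlap, leaving arrays out could not change it either. All 10 genes whose difference exceeded its SE are among these 14 (Pcx over 18 alternatives, since the signal filter removes it). The difference of Pcx was 0.27 without knockouts 3 and 4 together. Same-numbered arrays did not pair (correlations of their deviations -0.10 to 0.12), and the replicate block gave 0 calls among the enzyme genes as well.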
